A study of Mus musculus with 9 samples.

Results

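The genes described here are those with which an adipocyte makes and stores fat and signals to other tissues. They form a list of 39 genes for fatty acid and triglyceride synthesis, lipid droplets, fatty acid transport, adipokines and the adrenergic control of heat production. A gene was taken from the array where at least 1 probe set carried its symbol and no other, which held for 36 of the 39 genes, out of 19930 genes on the array measured in this way. Acsl1, Cfd and Adrb3 were not analysed here. The values are log2 signals, averaged over the probe sets of Acaca and of Me1, which have 2 each, and taken from 1 probe set for the other 34 genes.

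RNA of adipose stromal cells from mammary glands of female Balb/c mice was hybridized to 9 Affymetrix Mouse Gene 1.0 ST arrays, 3 from each of 3 stages. Nulliparous mice, 8 weeks old, gave the ASC-Ns. By the paper's methods, the females of the other stages were mated at 8 weeks. They were therefore older when sampled, and age cannot be told apart from stage. The ASC-Ls came from lactation day 5, and the ASC-Is from day 3 of involution, the regression of the gland once suckling ends. The glands were digested with collagenase and hyaluronidase, and the paper describes the RNA as that of low passage cultures, grown from plated floating and stromal-vascular fractions, while the sample labels mention no culture. The labels call the 3 arrays of each stage biological replicates, but which mice stand behind each array is not stated, so that a p-value reflects only how these preparations varied, which may be partly technical.

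Adipocytes build fatty acids from citrate through ATP citrate lyase (Acly), acetyl-CoA carboxylase (Acaca, Acacb) and fatty acid synthase (Fasn), and then lengthen and desaturate them. The acids are joined to glycerol phosphate by acyltransferases and stored in a droplet coated by perilipins. The transcription factors SREBP-1 (Srebf1) and ChREBP (Mlxipl) drive the synthesis genes, and PPARγ drives many droplet, transport and adipokine genes during differentiation. The lactating mammary epithelium makes milk fat with much of the same machinery, and Cd36, Fabp4 and Plin2 are also made by endothelial cells or macrophages.

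None of the 36 genes was called changed between stages. A change was called where the unadjusted p of limma was under 0.05 and the difference was at least 1.5-fold, and 0 of the 36 genes met both limits in each comparison. Over all genes these limits were met by 0.627% between ASC-Ls and ASC-Ns, 0.251% between ASC-Is and ASC-Ns, and 0.482% between ASC-Is and ASC-Ls. At an unadjusted p under 0.05 alone, 1 gene, Ucp1, passed between ASC-Ls and ASC-Ns, where 3.64% of all genes did, and 0 passed in the other comparisons, where 1.56% and 1.8% of all genes did. After Benjamini-Hochberg adjustment over all genes, limma called 0 genes in every comparison, whether members or not. A moderated F test over the 3 stages had an unadjusted p under 0.05 for 0 of the 36 genes and for 1.73% of all genes. With the replicate number of the labels as a block, 0 of the 36 genes were called in each comparison, against 1.48%, 0.452% and 1.04% of all genes in the same order.

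The log2 differences were under 0.2 in size for 26 genes between ASC-Ls and ASC-Ns, 26 between ASC-Is and ASC-Ns and 28 between ASC-Is and ASC-Ls. Their median was -0.01 between ASC-Ls and ASC-Ns, -0.05 between ASC-Is and ASC-Ns, and -0.04 between ASC-Is and ASC-Ls, where the medians of all genes were 0.01, 0.00 and -0.01. In each comparison 15 of the 36 genes were higher and 21 were lower, where 51.7%, 50.9% and 48.0% of all genes were higher and 48.3%, 49.1% and 52.0% lower. The 95% interval of the difference lay within 1.5-fold in both directions for 18, 19 and 23 genes in these comparisons, and within 2-fold for 32, 32 and 31. The intervals of Cd36, Elovl6 and Plin2 reached beyond 2-fold in every comparison, that of Lpin1 in both comparisons with ASC-Ns, and those of Scd1 and Dgat2 between ASC-Is and ASC-Ls. For these 6 genes a 2-fold difference between stages could not be told from none with 3 arrays per stage. Most of the spread lay within stages, with 9.98% of the variance over the arrays between stages for the median member and 15.92% for the median of all genes.

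**Figure D1:**
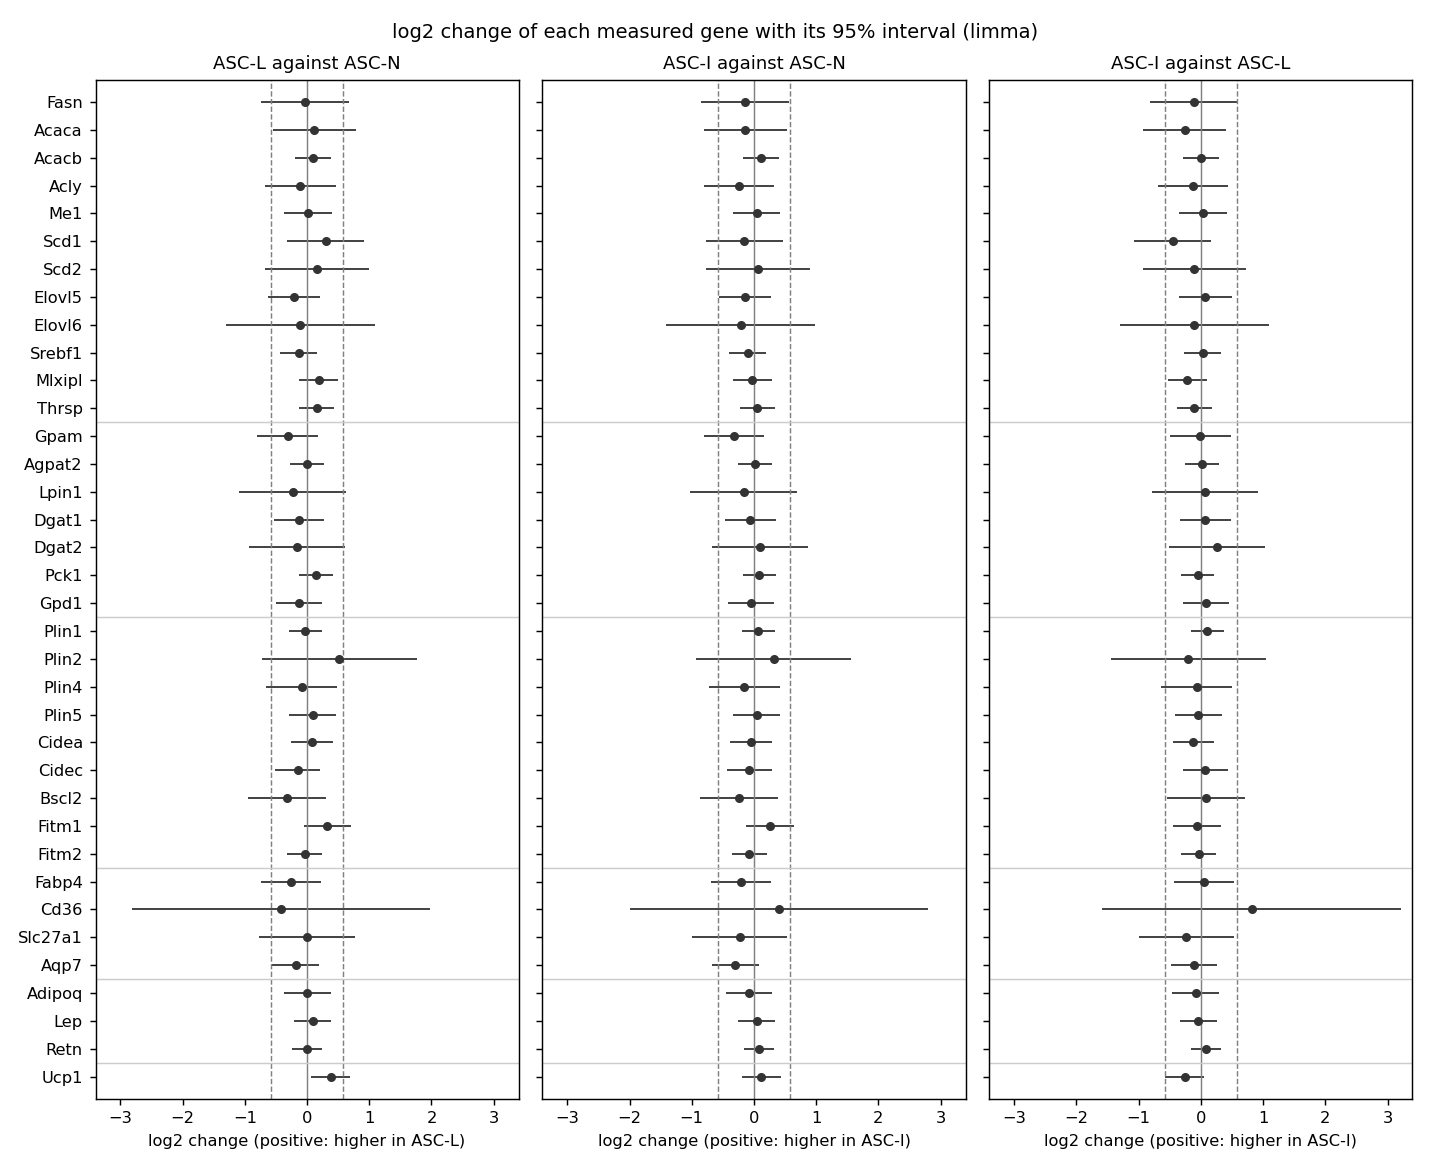
log2 change (horizontal axis) of the 36 genes in ASC-Ls against ASC-Ns, ASC-Is against ASC-Ns and ASC-Is against ASC-Ls, with the 95% interval of limma as a bar, dashed lines at 1.5-fold and grey lines between groups of genes. The interval holds 0 for every gene in every comparison except Ucp1 in ASC-Ls against ASC-Ns, and Cd36, Elovl6 and Plin2 have the widest intervals.

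The adipokines and the droplet proteins of mature adipocytes differed little between stage means. Adipoq encodes adiponectin, an insulin-sensitizing hormone that mature adipocytes secrete. Its log2 signals were 3.83, 4.41 and 3.83 in ASC-Ns, 4.01, 3.96 and 4.10 in ASC-Ls, and 4.06, 3.82 and 3.95 in ASC-Is. The highest array was that of ASC-N replicate 2, the other arrays overlapped, and the difference between ASC-Ls and ASC-Ns was 0.00 (95% interval -0.38 to 0.38). Lep encodes leptin, the satiety hormone of fat. The arrays gave Lep log2 signals of 3.95, 4.14 and 4.05 in ASC-Ns, 4.15, 4.04 and 4.21 in ASC-Ls, and 4.31, 4.08 and 3.88 in ASC-Is, so that the ASC-I arrays held both the highest and the lowest value. The difference of Lep was 0.09 between ASC-Ls and ASC-Ns (95% interval -0.21 to 0.38) and 0.05 between ASC-Is and ASC-Ns (95% interval -0.25 to 0.34). Retn encodes resistin, which opposes insulin action in mice. On the log2 scale the signals of Retn were 5.04, 5.12 and 5.30 in ASC-Ns, 5.13, 5.16 and 5.16 in ASC-Ls, and 5.19, 5.29 and 5.21 in ASC-Is. All ASC-I arrays lay above all ASC-L arrays for Retn, by a difference of means of 0.08 (standard error 0.10), and it was the only one of the 36 genes whose arrays did not overlap between these stages, as was so for 5.56% of all genes, 2.6% higher and 2.96% lower. Its total range over the 9 arrays was 0.25.

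Plin1 encodes perilipin 1, which coats the droplet of mature adipocytes and holds back lipolysis. Plin1 had log2 signals of 5.76, 5.83 and 5.83 in ASC-Ns, 5.99, 5.64 and 5.70 in ASC-Ls, and 5.84, 5.89 and 5.90 in ASC-Is. The ASC-I arrays lay just above the ASC-N arrays, with a difference of 0.07 (standard error 0.12), and the ASC-L arrays spanned both. No other gene of the 36 had separate arrays between ASC-Is and ASC-Ns, where 6.54% of all genes did, 3.89% higher and 2.65% lower. Cidec encodes a protein that fuses droplets into the single large droplet of white adipocytes. The signals of Cidec on the log2 scale were 5.33, 5.27 and 5.33 in ASC-Ns, 5.35, 4.98 and 5.16 in ASC-Ls, and 5.57, 5.05 and 5.09 in ASC-Is, with overlap between all stages. Pck1 encodes an enzyme of the route by which fat makes glycerol phosphate from lactate and pyruvate. For Pck1 the log2 signals were 5.33, 5.31 and 5.45 in ASC-Ns, 5.50, 5.48 and 5.52 in ASC-Ls, and 5.62, 5.48 and 5.24 in ASC-Is. The ASC-L arrays of Pck1 lay above the ASC-N arrays, with a difference of 0.14 (standard error 0.12, adjusted p = 0.998 by limma), and the ASC-I arrays held the highest and the lowest value.

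The lower quartile of all probe set signals lay between 4.55 and 4.67 in these arrays and the median between 5.928 and 6.005. All 9 signals of Adipoq and of Lep were below the lower quartile of the arrays, and all 9 of Retn, Cidec and Pck1 were below the median. Not every adipocyte marker was low, since Fabp4 lay at 7.50 to 8.45, around the upper quartile of 7.84 to 7.97. Plin1 lay at 5.64 to 5.99, near the median. Such a position depends on how well a probe set responds, and no detection calls were used, so whether these transcripts were present was not tested. By comparison, 11 measured markers of stromal fibroblasts and preadipocytes averaged log2 signals of 9.67 to 10.23 in ASC-Ns, 9.45 to 10.33 in ASC-Ls and 9.59 to 10.16 in ASC-Is. These markers were not uniformly high. Col1a1 lay at 12.63 to 13.36, but Dlk1 at 6.35 to 6.88, Dpp4 at 5.00 to 7.41, Cd34 at 4.94 to 7.76 and Lum at 4.62 to 9.06. Among the 11, Pdgfra alone was called, with a change of -1.22 from ASC-Ns to ASC-Ls (standard error 0.51, adjusted p = 0.998 by limma). Its arrays did not overlap between these stages. Of 8 regulators of the adipocyte state, only Pparg and Slc2a4 were called. Pparg was lower in ASC-Ls and ASC-Is than in ASC-Ns, at -0.96 and -0.83 on the log2 scale (each with a standard error of 0.24). The insulin-responsive glucose transporter Slc2a4 was higher by 0.65 in ASC-Ls (standard error 0.12). In ASC-Ls the adjusted p of both was 0.998 by limma, and none of the 8 passed adjustment in any comparison. Of all genes, 0.627% were called between ASC-Ls and ASC-Ns and 0.251% between ASC-Is and ASC-Ns. In RNA of a mixed culture, fewer cells of a type and less RNA per cell cannot be told apart.

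**Figure D2:**
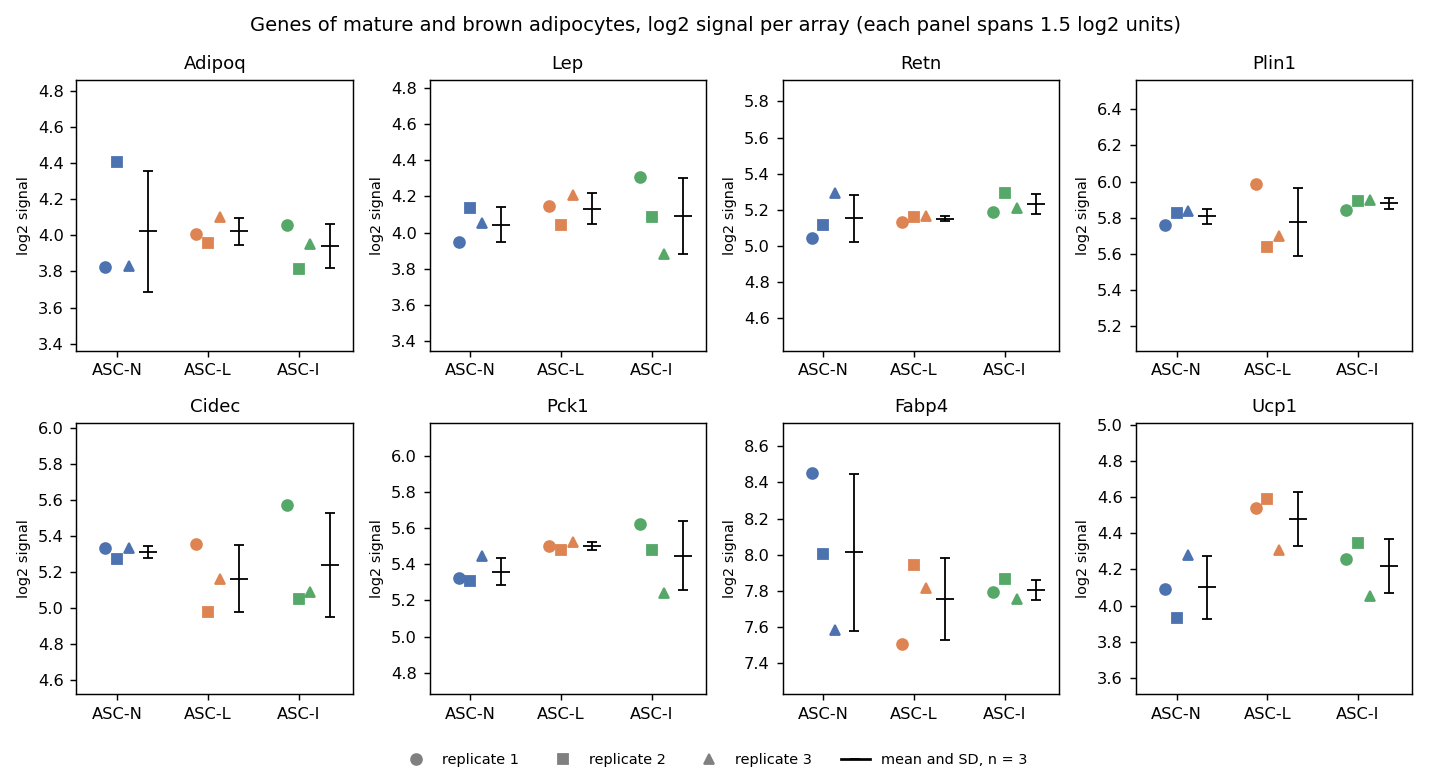
log2 signal (vertical axis) of 8 genes of mature or brown adipocytes in the 3 arrays of each stage, with the mean and SD beside the points. All stages overlap for Adipoq, Lep, Cidec and Fabp4. The ASC-I arrays lie above the ASC-L arrays for Retn and above the ASC-N arrays for Plin1. For Pck1 the ASC-L arrays lie above the ASC-N arrays. The ASC-L arrays of Ucp1, at 4.31 to 4.59, lie above the ASC-N arrays, at 3.93 to 4.28.

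Ucp1, the uncoupling protein with which brown and beige adipocytes make heat, had the lowest p of the 36 genes. All its signals lay below 4.67, the highest lower quartile of the arrays, so that it was not tested when the lowest 25% of genes by mean signal were left out, and whether it was detected was not tested. Its log2 signals were 4.09, 3.93 and 4.28 in ASC-Ns, 4.54, 4.59 and 4.31 in ASC-Ls, and 4.26, 4.34 and 4.05 in ASC-Is. The lowest ASC-L array lay just above the highest ASC-N array, and the ASC-I arrays overlapped with both stages. The difference between ASC-Ls and ASC-Ns was 0.38 (95% interval 0.07 to 0.69), with an adjusted p = 0.998 by limma. Without ASC-L replicate 2 it was 0.32, and the unadjusted p was no longer under 0.05. Ucp1, Pck1 and Fitm1 were the 3 of 36 genes whose arrays did not overlap between these stages, all higher in ASC-Ls, against 4.89% of all genes higher, 3.7% lower and 8.59% in either direction. Of 8 other genes of brown adipocytes, the ASC-L mean lay above that of ASC-Ns for 4 and below it for 4 (median log2 change 0.02), and 0 were called or had an unadjusted p under 0.05 in limma. Cidea, a droplet protein of brown adipocytes in the mouse, differed by 0.07 between these stages (standard error 0.15).

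For each gene of fatty acid synthesis, most of the variance over the arrays lay within stages, and the share between stages was highest for Mlxipl, at 36.66%. Most of it would also lie within stages if the stages did not differ. Of the 12 genes, 7 were higher and 5 lower in ASC-Ls against ASC-Ns (median log2 change 0.06), and 4 were higher and 8 lower in ASC-Is against ASC-Ns (median -0.12). Fasn had log2 signals of 8.29, 9.004 and 7.90 in ASC-Ns, 8.21, 8.81 and 8.10 in ASC-Ls, and 8.08, 8.69 and 8.02 in ASC-Is. The ASC-N arrays alone spanned the whole range, and replicate 2 was the highest array of every stage. The stage means of Fasn were 8.40 ± 0.56, 8.37 ± 0.38 and 8.26 ± 0.37 (SD, n = 3 each, ASC-Ns, ASC-Ls and ASC-Is), and ASC-Ls differed from ASC-Ns by -0.03 (95% interval -0.73 to 0.68). Scd1, the desaturase that makes oleate and palmitoleate, had log2 signals of 10.24, 10.63 and 9.59 in ASC-Ns, 10.49, 10.07 and 10.81 in ASC-Ls, and 10.01, 10.16 and 9.83 in ASC-Is. It was the gene of this group that differed most between stages, at -0.46 in ASC-Is compared with ASC-Ls (standard error 0.27, adjusted p = 1.000 by limma), and the arrays overlapped, since ASC-L replicate 2 lay below the highest ASC-I array. Without ASC-L replicate 2 it passed the limits of a call, at -0.65 (adjusted p = 1.000 by limma), as the only one of the 36 genes, where 0.492% of all genes passed. In that setting 0 of the 36 genes passed between ASC-Ls and ASC-Ns or ASC-Is and ASC-Ns, where 0.617% and 0.306% of all genes did. Srebf1, which encodes the transcription factor SREBP-1, had log2 signals of 8.04, 8.13 and 8.04 in ASC-Ns, 8.06, 7.75 and 8.01 in ASC-Ls, and 8.11, 7.76 and 8.03 in ASC-Is. The lowest ASC-L and ASC-I values of Srebf1 were both those of replicate 2, and its range of 0.38 over the arrays was smaller than that of Fasn, 1.11.

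In the ASC-Ns many enzymes of the pathway varied alike. Of the 12 genes of this group, 9 were highest among the ASC-N arrays in replicate 2 and 8 were lowest in replicate 3. Fasn, Acaca, Acly, Scd1, Scd2 and Elovl6 were lower in ASC-N replicate 3 than in any other of the 9 arrays. Elovl6, which lengthens palmitate to stearate, had the widest range of the group, with log2 signals of 8.08, 9.17 and 6.80 in ASC-Ns, 8.05, 8.05 and 7.64 in ASC-Ls, and 7.17, 8.35 and 7.89 in ASC-Is. Both the highest and the lowest of the 9 values were those of ASC-Ns. Acly, which splits citrate to acetyl-CoA, had 9.83, 10.39 and 9.25 in ASC-Ns, 9.82, 9.65 and 9.67 in ASC-Ls, and 9.40, 9.75 and 9.59 in ASC-Is, again with both extremes in ASC-Ns. The other 6, which are Acacb, Me1, Elovl5, Srebf1, Mlxipl and Thrsp, had their lowest array elsewhere. The mean over the 12 genes was 8.37, 8.70 and 7.99 in the ASC-N arrays, and between 8.27 and 8.47 in ASC-Ls and between 8.23 and 8.36 in ASC-Is. ASC-N replicate 3 also had the lowest mean of 17 macrophage markers of all arrays, 6.13, against 8.28 and 8.18 in the other ASC-Ns, and its part in these genes was not tested.

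**Figure D3:**
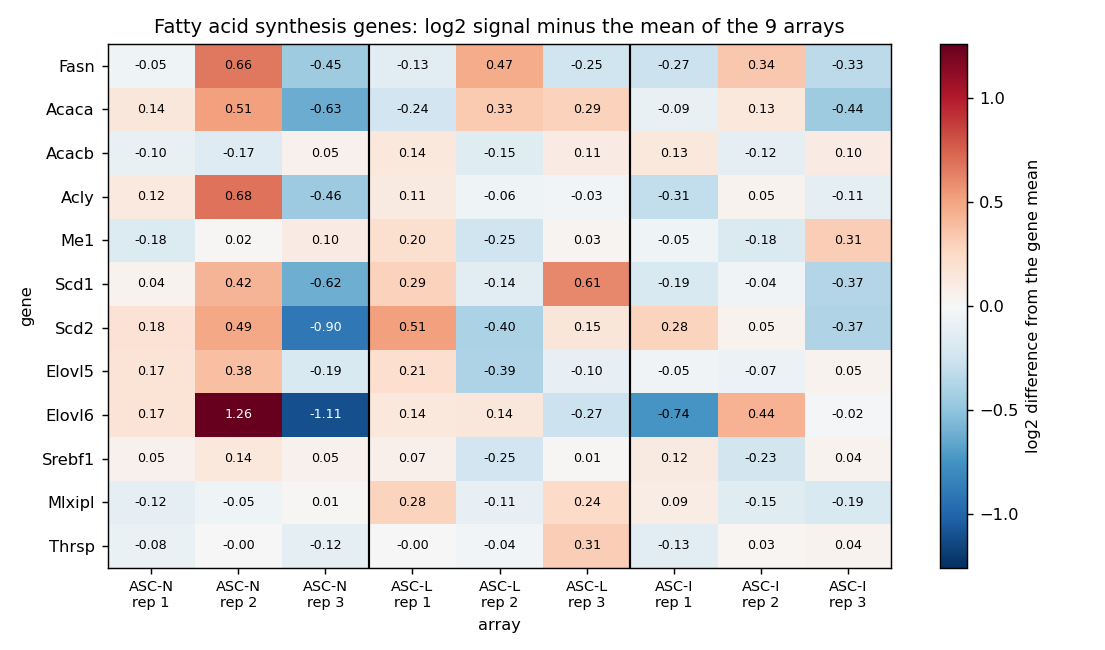
log2 signal of the 12 genes of fatty acid synthesis (rows) in each array (columns) minus the mean of the gene over the 9 arrays, with black lines between stages. ASC-N replicate 2 holds the highest value of 6 genes and ASC-N replicate 3 the lowest of 6 genes, with 1.26 and -1.11 for Elovl6.

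For the members, the 250 bases before the start of transcription were searched, from RefSeq on GRCm38.p6, for 3 motifs on both strands. These were the sterol response element TCACNCCAC, the E-box CACGTG, which SREBP-1 can bind, and the CCAAT box (letters CCAAT), which NF-Y binds. Of the 29 members with such a sequence, 1 held the sterol element, 3 the E-box and 15 the CCAAT box, where 1.22%, 6.86% and 37.5% of all genes with a sequence did. Fasn (chr11:120824548-120824797, minus strand), Acly (chr11:100528001-100528250, minus strand) and Elovl6 (chr3:129532136-129532385, plus strand) are shown 5′ to 3′ because they shared the pattern over the ASC-Ns, and capitals mark the CCAAT boxes on either strand. Fasn held 3, of which a pair overlap, and Acly and Elovl6 held 0 matches to any of the 3 motifs, which says only that these letters are not in this window.
Fasn: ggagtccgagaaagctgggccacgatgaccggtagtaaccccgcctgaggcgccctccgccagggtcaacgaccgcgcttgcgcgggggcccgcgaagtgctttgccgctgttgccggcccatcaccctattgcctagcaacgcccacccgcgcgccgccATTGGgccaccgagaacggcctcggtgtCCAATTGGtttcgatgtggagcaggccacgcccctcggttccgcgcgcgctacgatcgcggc
Acly: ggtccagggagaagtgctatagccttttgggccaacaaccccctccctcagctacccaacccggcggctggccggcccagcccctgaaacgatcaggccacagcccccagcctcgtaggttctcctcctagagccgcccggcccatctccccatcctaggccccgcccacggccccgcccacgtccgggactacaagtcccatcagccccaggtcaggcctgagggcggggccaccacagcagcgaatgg
Elovl6: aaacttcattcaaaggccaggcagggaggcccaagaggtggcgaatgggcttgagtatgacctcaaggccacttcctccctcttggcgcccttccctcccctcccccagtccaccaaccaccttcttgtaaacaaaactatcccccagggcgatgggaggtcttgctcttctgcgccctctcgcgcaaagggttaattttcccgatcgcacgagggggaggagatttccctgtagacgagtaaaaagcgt

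Of the genes of glycerolipid synthesis, Pck1 among them, 0 were called, and their lean to lower signals in ASC-Ls rested on single arrays. In ASC-Ls compared with ASC-Ns, 1 of 7 was higher and 6 were lower (median log2 change -0.13), and in ASC-Is compared with ASC-Ns 3 were higher and 4 lower (median -0.05). Gpam, the acyltransferase of the first step, differed by -0.31 in ASC-Ls and by -0.32 in ASC-Is from ASC-Ns (standard error 0.21 for each). Lpin1, a phosphatidate phosphatase, and Dgat2, which makes triglyceride, had their lowest signals in ASC-L replicate 2, at 6.19 and 6.99, where the highest arrays of these genes reached 7.57 and 8.30. The median over these 7 genes between ASC-Ls and ASC-Ns was 0.06 without ASC-L replicate 2, and 0.05 without ASC-N replicate 3, so that its sign rested on single arrays. Agpat2, the acyltransferase whose loss causes lipodystrophy in humans and mice, had a range of 0.29 over all arrays and differed by -0.00 and 0.02 from ASC-Ns in ASC-Ls and ASC-Is (standard error 0.12).

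Plin2, the perilipin of small droplets in many cell types and of milk fat globules, varied most among the droplet genes. Its log2 signals were 9.78, 9.96 and 10.09 in ASC-Ns, 9.44, 11.32 and 10.62 in ASC-Ls, and 9.46, 11.40 and 9.92 in ASC-Is. ASC-L replicate 2 and ASC-I replicate 2 stood above the other arrays, and the lowest ASC-L and ASC-I arrays lay below all ASC-Ns. The difference between ASC-Ls and ASC-Ns was 0.52 (95% interval -0.73 to 1.76), and 0.08 without these arrays. Fitm1, which helps droplets bud from the endoplasmic reticulum, had log2 signals of 5.20, 4.92 and 5.23 in ASC-Ns, 5.40, 5.40 and 5.55 in ASC-Ls, and 5.10, 5.73 and 5.30 in ASC-Is. Its ASC-L arrays lay above its ASC-N arrays, with a difference of 0.33 (standard error 0.17, adjusted p = 0.998 by limma), and its relative Fitm2 differed by -0.04 between the same stages (standard error 0.12). Bscl2, which encodes seipin, a protein of droplet assembly, differed by -0.32 between ASC-Ls and ASC-Ns (standard error 0.28). The other droplet genes, Plin4, Plin5 and Cidea, differed by -0.15 to 0.09 over the comparisons.

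Cd36, the scavenger receptor that takes up fatty acids, had the widest range of the 36 genes, wider than that of 99.7% of all genes. Its log2 signals were 8.24, 7.85 and 5.52 in ASC-Ns, 5.07, 8.68 and 6.62 in ASC-Ls, and 6.50, 9.20 and 7.10 in ASC-Is. Each stage held arrays both above and below the mean of every other stage, and all stages overlapped, while the ASC-I array was the higher one in all 3 pairs of ASC-I and ASC-L arrays with the same number. ASC-Is differed from ASC-Ls by 0.81 (95% interval -1.59 to 3.21), with a standard error of 1.06, or 0.74 with the replicate block, and ASC-Ls from ASC-Ns by -0.42 (95% interval -2.81 to 1.98). Fabp4, the fatty acid binding protein of adipocytes, which the paper used as a marker of mature adipocytes, had log2 signals of 8.45, 8.00 and 7.58 in ASC-Ns, 7.50, 7.94 and 7.82 in ASC-Ls, and 7.79, 7.87 and 7.76 in ASC-Is. The ASC-L and ASC-I arrays lay within the range of the ASC-Ns but for ASC-L replicate 1, and the difference from ASC-Ns was -0.26 in ASC-Ls and -0.21 in ASC-Is (standard error 0.21 for each). Aqp7, the channel through which fat releases glycerol, differed by -0.30 between ASC-Is and ASC-Ns (standard error 0.16). All 4 transport genes measured, with the fatty acid transporter Slc27a1 as the fourth, were lower in ASC-Ls against ASC-Ns, by -0.42 to -0.00, and 0 were called.

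Within ASC-Ls and ASC-Is, the mean log2 signals of epithelial, milk and endothelial markers were highest in replicate 2, as were Cd36 and Plin2. This was not so within ASC-Ns or for macrophage markers. Averaged over 15 luminal epithelial markers, the log2 signal was 5.73 to 6.83 in ASC-Ns, 5.92 to 8.84 in ASC-Ls and 5.75 to 7.54 in ASC-Is, and replicate 2 of ASC-Ls and of ASC-Is stood highest. Their summed linear signal was 1072 to 2884 in ASC-Ns, 1485 to 16980 in ASC-Ls and 1284 to 5749 in ASC-Is. By stage mean, the ASC-Ls were higher than the ASC-Ns in all 15 of these markers. Of these, 2 were called, where 0.627% of all genes were, and 0 passed adjustment. The averages per array were 6.83, 6.83 and 5.73 in ASC-Ns and 5.92, 8.84 and 6.20 in ASC-Ls. Only ASC-L replicate 2 stood above every ASC-N array. The mean of 10 milk protein and milk fat genes was 4.77 to 4.78 in ASC-Ns, 4.86 to 6.30 in ASC-Ls and 4.86 to 5.52 in ASC-Is, with summed linear signals of 623 to 1066, 745 to 1298 and 636 to 1097. Of these 10, 9 were higher in ASC-Ls against ASC-Ns and 1, the whey protein gene Wap, was called higher (adjusted p = 0.998 by limma). The summed milk signal, however, was highest in replicate 3 of ASC-Ls and of ASC-Is, at 1298 and 1097. Xdh, a gene of this list, made up most of these 2 sums. Its log2 signals in replicate 3 of ASC-Ls and of ASC-Is were 10.07 and 9.82. The next highest gene of the list there, Wap, had 5.57 and 5.53. Xdh was lowest in replicate 2 of both stages, at 6.75 and 8.01. The 8 markers of basal epithelium and the 10 of endothelium averaged highest in replicate 2 within ASC-Ls and ASC-Is. Their means were 9.35 and 7.51 in ASC-L replicate 2 and 7.90 and 6.92 in ASC-I replicate 2. The endothelial mean was 7.13 in ASC-N replicate 1. The summed signal was 876 to 1132, 733 to 8623 and 821 to 2525 for basal epithelium and 1031 to 1831, 945 to 2470 and 1029 to 1786 for endothelium in ASC-Ns, ASC-Ls and ASC-Is. The ASC-Is were higher than the ASC-Ls in 16 of 17 macrophage markers. Of these, 8 were called, where 0.482% of all genes were, and 0 passed adjustment. The summed signals of the macrophage markers were 4754 to 14274 in ASC-Is, 2483 to 3249 in ASC-Ls and 1882 to 8313 in ASC-Ns. No detection calls were used, so whether each marker was detected was not tested. The part of these cells in Cd36 and Plin2 was not tested.

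**Figure D4:**
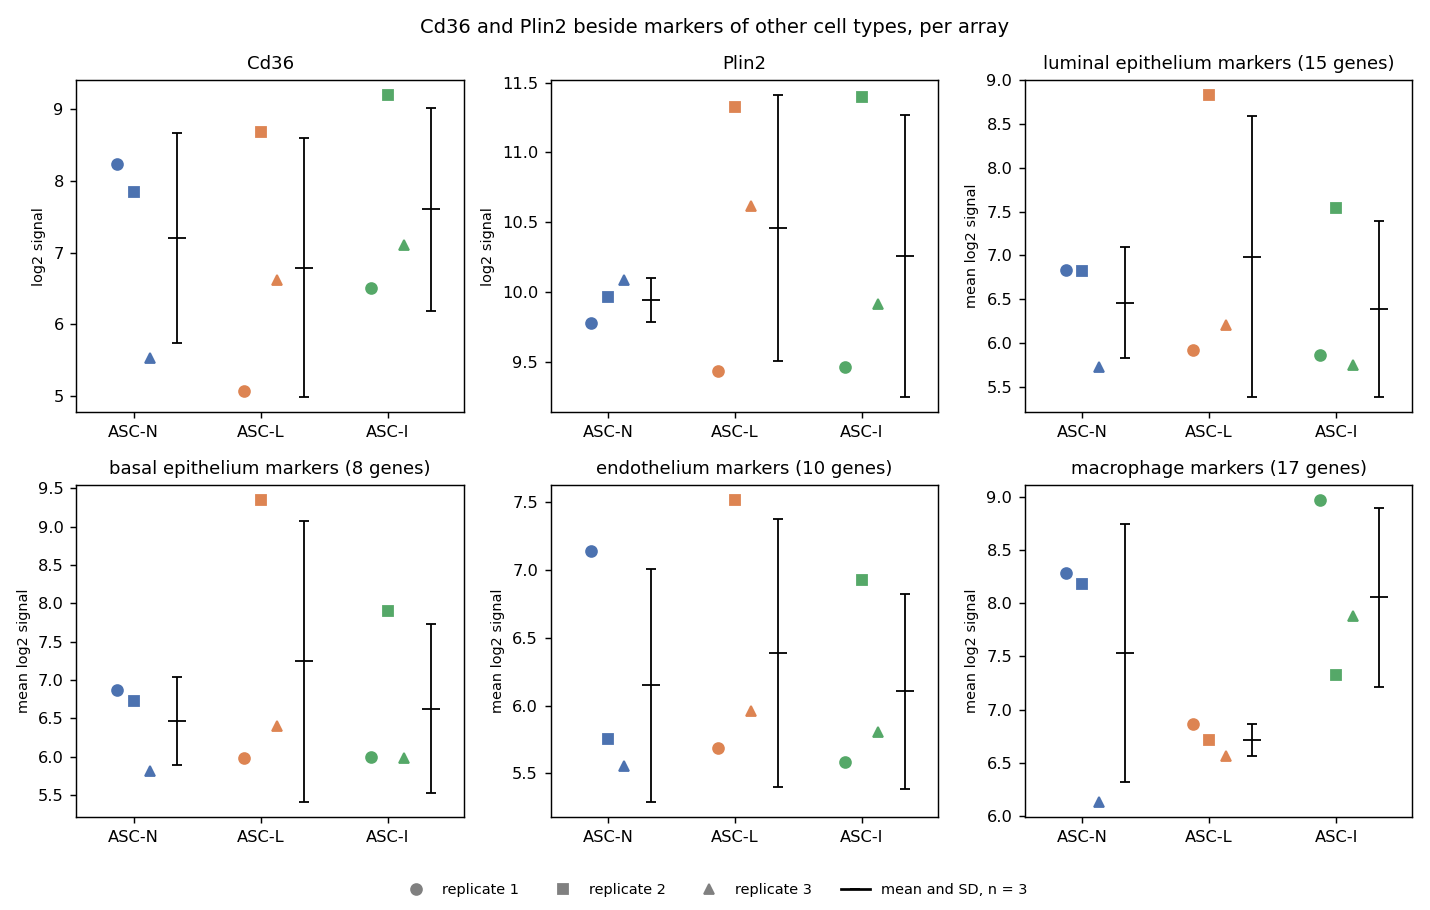
log2 signal (vertical axis) of Cd36 and Plin2 and mean log2 signal of the marker lists of 4 other cell types in the 3 arrays of each stage, with the mean and SD beside the points. Within ASC-Ls and within ASC-Is, replicate 2 is on top in every panel but that of macrophages.

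Leaving out arrays that stood apart in these markers gave no member an adjusted p under 0.05. Without replicate 2 of ASC-Ls and of ASC-Is, 0 of the 36 genes were called in each comparison, where 0.773% of all genes were between ASC-Ls and ASC-Ns, 0.723% between ASC-Is and ASC-Ns, and 0.973% between ASC-Is and ASC-Ls. When ASC-N replicate 3 was left out too, a choice made with the values known, which keeps 2 arrays per stage, 6 of the 36 genes were called between ASC-Is and ASC-Ns, where 4.8% of all genes were. Fasn, Acaca, Acly, Elovl6 and Cd36 were lower in ASC-Is, by log2 changes of -0.60, -0.59, -0.61, -1.10 and -1.24, and Dgat2 was higher by 0.60. Among the ASC-Ns, replicate 3 had held the lowest signals of the genes called lower and the highest of Dgat2. Among the ASC-Is, replicate 2 had held the highest signals of the genes called lower and the lowest of Dgat2. Leaving out both arrays moved the means of ASC-Ns and of ASC-Is in the direction of the calls. The calls therefore follow in part from these choices. The adjusted p of these 6 genes lay between 0.350 and 0.415, while 1 gene of the array passed 0.05 after adjustment in this comparison and 2 did between ASC-Is and ASC-Ls. In the same setting only Cd36 was called between ASC-Ls and ASC-Ns, at -2.20 (adjusted p = 0.208), and only Scd1 between ASC-Is and ASC-Ls, at -0.73 (adjusted p = 0.993), where 4.61% and 1.48% of all genes were. With all 9 arrays the 4 synthesis genes among them differed by -0.14 to -0.24 between ASC-Is and ASC-Ns, and Cd36 by 0.40.

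Among other genes of the same pathways, 1 was called. Of 29 further genes of lipid synthesis, limma called 0 in every comparison, with 2, 0 and 0 at an unadjusted p under 0.05, and their median log2 changes were 0.06 between ASC-Ls and ASC-Ns, -0.00 between ASC-Is and ASC-Ns, and -0.09 between ASC-Is and ASC-Ls. Their single changes reached from -0.84 to 0.75 over the comparisons, both extremes those of the elongase Elovl7 (standard error 0.86). Of 17 further genes of droplets and of lipid release, 1 rose and 0 fell in ASC-Is compared with ASC-Ls, where 0.482% of all genes were called. In both comparisons with ASC-Ns limma called 0 of them, with 1 at an unadjusted p under 0.05 in each, and of 13 further adipokines and adipokine receptors 0 were called or reached that p. The gene that rose was Hilpda, a droplet protein induced by low oxygen that inhibits the lipase of adipocytes. Its log2 signals were 6.41, 6.11 and 6.60 in ASC-Ns, 6.36, 6.25 and 6.09 in ASC-Ls, and 7.03, 6.95 and 6.59 in ASC-Is. All ASC-I arrays lay above all ASC-L arrays, and the change of 0.63, which is 1.55-fold, had a standard error of 0.17 (adjusted p = 1.000 by limma). The change was 0.56 without replicate 3 of ASC-Ls, 0.54 without replicate 1 of ASC-Is and 0.58 without replicate 2 of ASC-Is, below 1.5-fold. Against ASC-Ns the ASC-Is differed by 0.49 (standard error 0.17), below 1.5-fold.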

How the data were processed

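The log2 signals per probe set deposited by the authors are normalized values. The paper's methods name robust multi-array average and the submitters' notes name GCRMA and limma, versions not given in the sources used here. They were not normalized further, and the study's removal of undetected and little varying genes was not repeated. Of 28348 probe sets, 21762 carried 1 gene symbol of the platform annotation, 1621 carried several and 4965 none, and probe sets of the last 2 kinds were left out. RefSeq names of GRCm38.p6 changed 0 symbols. Signals were averaged per gene over 19930 genes, and all 9 arrays entered 1 fit of stage means in limma 3.58.1 (R 4.3.3), with variances moderated by empirical Bayes (2.91 prior degrees of freedom) and Benjamini-Hochberg adjustment over all genes. The script was tested on simulated data. Scanner files and scan dates were not used here, and the number of arrays limits the precision.

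The members and lists were chosen with earlier results of these data known. Values in every array are given for 12 measured genes fixed by name or by separate arrays with at least a 1.3-fold difference. Plin2, Elovl6, Acly and Fitm1 were added after their values were seen, as were Pparg, Slc2a4, Elovl7, Wap, the stromal markers named and the members given by their difference only. Of the pathway lists the called genes are named. The replicate numbers of the labels are shared between stages. Across genes, deviations of same-numbered arrays from their stage means had r = 0.47, 0.73 and 0.46 for ASC-Is with ASC-Ls, which meets the limit of 0.1 set for pairing. The values given are those of the fit without the block, and the block was run as an alternative. For ASC-Ls with ASC-Ns r was -0.08, 0.40 and 0.45, and for ASC-Is with ASC-Ns it was 0.07, 0.43 and 0.50. Alternatives were quantile normalization, cyclic loess, array weights, a robust prior that follows intensity, fits of 2 stages alone, removal of the lowest 25% of mean signal, 1 probe set per gene, probe sets with several symbols, the replicate block, and leaving out arrays.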

Additional observations from a re-analysis of the deposited data

How the results depend on the processing

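The count of called members was 0 in every comparison and setting except 4. Without each array in turn it was 0 in both comparisons with ASC-Ns and 0 to 1 between ASC-Is and ASC-Ls, and without ASC-L replicate 2, ASC-I replicate 2 and ASC-N replicate 3 together it was 1 between ASC-Ls and ASC-Ns, 6 between ASC-Is and ASC-Ns and 1 between ASC-Is and ASC-Ls, with Cd36 turned to -1.24 between ASC-Is and ASC-Ns, where its highest value on leaving out arrays was 0.95. The cause was not tested, and that setting has fewer arrays. The replicate block changed no call of a member. Over all genes the counts were 125 between ASC-Ls and ASC-Ns, 50 between ASC-Is and ASC-Ns and 96 between ASC-Is and ASC-Ls. They were 295, 90 and 207 with the replicate block, 311, 187 and 142 with array weights, 154, 144 and 194 without replicate 2 of ASC-Ls and of ASC-Is, and 919, 956 and 294 without ASC-N replicate 3 too. Without each array in turn they ranged from 80 to 404, from 32 to 221 and from 36 to 331. Medians of gene groups moved by more than the spread between replicates in 18 cases and by less in 399.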
